A study of Caenorhabditis elegans with 16 samples.

Results

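*Caenorhabditis elegans* embryos mutant for the F-box gene *fbxa-215* (allele syb4404, strain SX3678) were compared between parents grown at 25 °C and parents grown at 20 °C. The comparison used 8 of the 16 libraries of the series, 4 at each temperature, chosen by their labels. It covered all 21882 genes of the count tables, of which 11558 passed the filter on low counts and were tested. The other 8 libraries came from the wild-type strain N2 at the same temperatures, and are used here only to show where the mutants differ. Embryos of mixed stages were released by bleaching adults. The time from plating of larvae to collection was 47 h at 25 °C but 56 h at 20 °C. Temperature, time from plating and batch therefore cannot be told apart, and every difference below is one between the batches as a whole. According to the study's description the allele removes the whole coding sequence of *fbxa-215*, and both mutant groups carry it. The study's methods speak of biological replicates, but nothing in the labels says that the 4 libraries of a group came from separate cultures. P-values measure the spread between these libraries.

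F-box proteins recruit substrates to SCF ubiquitin ligases, complexes built on a cullin, a Skp1-related adaptor and a RING protein, and nematodes have many such adaptors. In the *C. elegans* embryo, RNA that the mother placed in the egg drives the first divisions and is cleared as the zygotic genome is switched on. In later embryogenesis divisions become rare, muscle, gut, neurons and epidermis differentiate, and the epidermis builds first a temporary apical matrix and then the collagen cuticle of the larva. A sample of mixed stages averages over these programmes. In RNA from whole embryos, fewer cells of a type and less RNA per cell cannot be told apart.

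The mutant libraries held between 12856217 and 16777296 estimated counts. At 20 °C between 10357 and 10739 genes reached 10 counts in a library, and at 25 °C between 11714 and 11973 did. The first principal component of the 8 libraries carried 89.6% of the variance and separated the temperatures. The *fbxa-215* gene (WBGene00012879, chromosome IV, 13665364 to 13666909 in WBcel235) had 1 count in 1 library at 20 °C, 0 in the other 3 and 0 in all 4 at 25 °C. An exact two-sided permutation test of its level gave p = 1. With a count in only 1 library that result was fixed in advance and could show no difference, although 4 against 4 libraries in general allow a p of 0.0286. In wild type the same gene had between 2170 and 3214 counts per library. A count of 0 allows up to 3 counts, which was between 0.179 and 0.233 CPM (counts scaled to library size) in the mutant libraries.

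Most genes that differed were higher at 25 °C. Of the 11558 genes tested, 2174 (18.8%) were called higher and 121 (1.05%) were called lower, where a call needs an edgeR adjusted p under 0.05 and a fold change above 2. The median log2 fold change was 2.08 over the genes called higher and -1.34 over those called lower. It was 0.00 over all genes tested, with quartiles of -0.21 and 0.59. Without the fold minimum, 4192 genes (36.3%) were higher and 3812 (33%) were lower, and of those with a fold of 2 or less 2018 were higher and 3691 lower. In 62.9% of tested genes the 4 libraries at 25 °C lay all above or all below the 4 at 20 °C. The genes called higher took between 1.21% and 1.46% of the counts of a library at 20 °C and between 4.23% and 4.92% at 25 °C. The genes called lower took between 0.233% and 0.263% at 20 °C and between 0.0943% and 0.100% at 25 °C.

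Many of the rises came from low levels. Of the genes called higher, 1155 had a mean under 1 CPM at 20 °C, 218 had at most 3 counts in every library at 20 °C and 34 had none there. The share called higher was 50.3% among genes with a mean under 1 CPM over the 8 libraries, 38.7% from 1 to 10 CPM, 9.23% from 10 to 100 CPM and 1.68% at 100 CPM or more. A gene that reached the filter cutoff in every library at 25 °C, but not in every library at 20 °C, was favoured towards a rise by the filter itself. There were 1371 such genes, of which 1154 were called higher. Counts of list members are therefore given below for the 9814 genes at or above the filter cutoff of 0.662 CPM in all 8 libraries, of which 1015 (10.3%) were called higher and 72 (0.734%) lower.

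**Figure D1:**
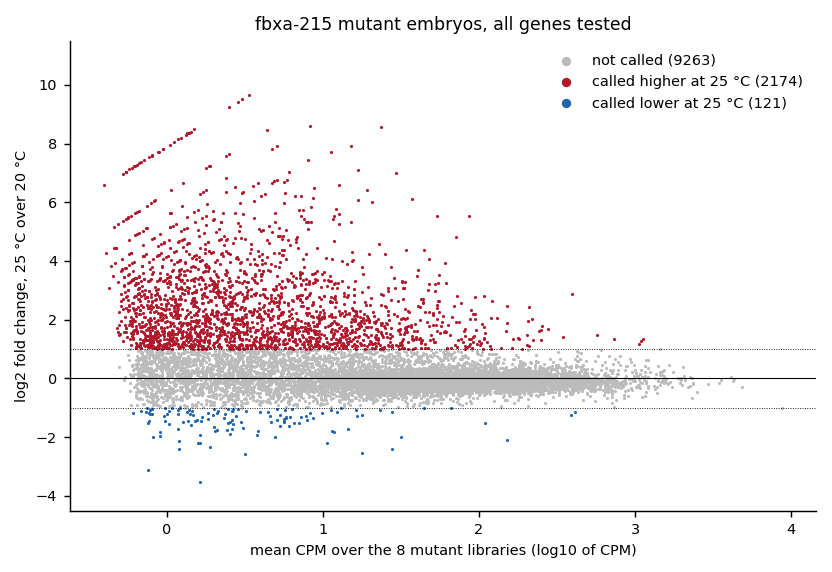
Each point is 1 of the 11558 genes tested in the mutant embryos. The horizontal axis is the log10 of the mean CPM over the 8 libraries, the vertical axis is the edgeR log2 fold change of 25 °C over 20 °C, dotted lines mark a fold of 2, and the 2174 genes called higher lie mostly at low CPM while the 121 called lower reach few values below -2.

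Muscle genes were among the lists that moved most. Of 25 muscle structure and contraction genes above the cutoff at both temperatures, 19 were called higher and none lower, with a median log2 fold change of 2.04. *unc-54*, the main myosin heavy chain of body wall muscle, had 46.4, 34.3, 33.2 and 34.2 CPM at 20 °C and 132, 175, 163 and 139 CPM at 25 °C. Every library at 25 °C was above every library at 20 °C, where replicate 1 was the highest. The log2 fold change of *unc-54* was 2.04 ± 0.08 (SE, edgeR adjusted p = 1.74e-16). *myo-3*, the other body wall myosin, rose from 29.5 ± 4.25 to 147 ± 10.4 CPM (SD, n = 4). The pharyngeal myosins *myo-2* and *myo-1* rose from 1.20 ± 0.343 to 5.91 ± 1.00 CPM and from 0.114 ± 0.0565 to 3.98 ± 0.732 CPM. *ttn-1*, which encodes a titin-like giant protein, rose 9.34-fold. The genes of this list that stayed below a 2-fold change include *pat-3* (integrin beta), *unc-97* and *unc-112*, components of the muscle attachment sites, with log2 fold changes of 0.12, 0.23 and 0.41. These 3 were named after their values were seen. The muscle regulator *hlh-1*, the worm's MyoD, had 66.9 to 77.2 CPM at 20 °C and 69.4 to 73.0 CPM at 25 °C, and its log2 fold change was -0.03 (edgeR adjusted p = 0.532).

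Intestinal genes rose in part. Of 11 intestinal genes above the cutoff at both temperatures, 6 were called higher and none lower (median 1.03). *ifb-2*, an intermediate filament of the gut's terminal web, had 6.77, 4.94, 4.78 and 6.25 CPM at 20 °C and 38.7, 46.3, 42.7 and 38.4 CPM at 25 °C. The groups did not overlap, and the rise was 7.33-fold. *act-5*, the actin of the microvilli, rose 2.53-fold. The esterase *ges-1* had 7.12 to 8.56 CPM at 20 °C and 7.58 to 9.16 CPM at 25 °C, overlapping ranges. *elt-2*, the GATA factor that maintains the gut, had 32.2 ± 2.16 and 34.8 ± 0.668 CPM (edgeR adjusted p = 0.11). Both other genes named by the rule on large changes started near 0. The aspartic protease *asp-1* had 0 to 0.256 CPM at 20 °C and 7.34 to 11.7 CPM at 25 °C. The lysozyme *lys-8* had 3 counts over the 4 libraries at 20 °C and 184 at 25 °C, a ratio of 63.0 with a 95% counting interval of 21.2 to 308.

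Among the neuronal lists, synapse genes rose in part. Of 16 synapse and neurotransmitter genes above the cutoff at both temperatures, 8 were called higher and none lower (median 0.96), and 10 more entered the test through 25 °C alone. *unc-13*, which primes synaptic vesicles for release, had 0.383, 0.903, 0.332 and 0.712 CPM at 20 °C and 6.79, 9.41, 9.19 and 9.59 CPM at 25 °C. The groups were well apart, with replicate 1 the lowest at 25 °C. *unc-13* was below the cutoff in at least 1 library at 20 °C and is among the genes that entered through 25 °C alone. *twk-18*, a potassium channel of body wall muscle on this list, rose 16.6-fold. *snb-1*, which encodes synaptobrevin and is transcribed well beyond neurons, fell slightly from 254 ± 2.68 to 226 ± 4.22 CPM (log2 -0.17), and turned positive under scaling on ribosomal protein genes. The vesicular transporter genes *unc-17* (acetylcholine) and *eat-4* (glutamate) did not pass the filter. Their highest values over the 8 libraries were 0.903 and 0.264 CPM. Neuropeptide and insulin-like genes were mostly too low to measure: 43 of 140 were tested and 19 were above the cutoff at both temperatures. Of these 19, 1 was called higher and 1 lower (background 10.3% and 0.734%), with a median of 0.13. The share called higher thus did not exceed that of all genes. *flp-1*, a FMRFamide-like peptide gene, rose from 0.171 ± 0.0918 to 2.30 ± 0.569 CPM, but it overlaps *daf-10*, which rose as well, and the libraries did not keep strand. *nlp-33*, an antimicrobial peptide gene of the epidermis, rose from 0.400 ± 0.355 to 2.59 ± 0.731 CPM, and *nlp-21* was below the filter. Both *flp-1* and *nlp-33* were below the cutoff in at least 1 library at 20 °C.

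Most cilium genes were higher at 25 °C. In *C. elegans* only sensory neurons bear cilia, and intraflagellar transport builds and maintains them. Of 22 such genes above the cutoff at both temperatures 14 were called higher and none lower (median 1.61), and 12 more entered the test through 25 °C alone. *che-11*, a component of the transport particle, had 0.320, 0.361, 0.0663 and 0.158 CPM at 20 °C and 10.3, 10.4, 9.19 and 8.93 CPM at 25 °C, a 40.2-fold rise. *che-11* was below the cutoff in every library at 20 °C and passed the filter through 25 °C alone, so its groups could not overlap. The transport genes *osm-6* and *che-13* rose 5.52-fold and 7.20-fold. *bbs-8*, a member of the BBSome, had 3 counts over the 20 °C libraries and 175 over the 25 °C libraries, a ratio of 59.9 (95% counting interval 20.2 to 293). *daf-19*, the RFX factor that switches on cilium genes, rose by less, from 60.5 ± 2.79 to 95.5 ± 6.24 CPM (1.58-fold). One gene of the list fell, the kinesin *osm-3* (log2 -0.48, edgeR adjusted p = 0.0235), which was named after its value was seen.

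**Figure D2:**
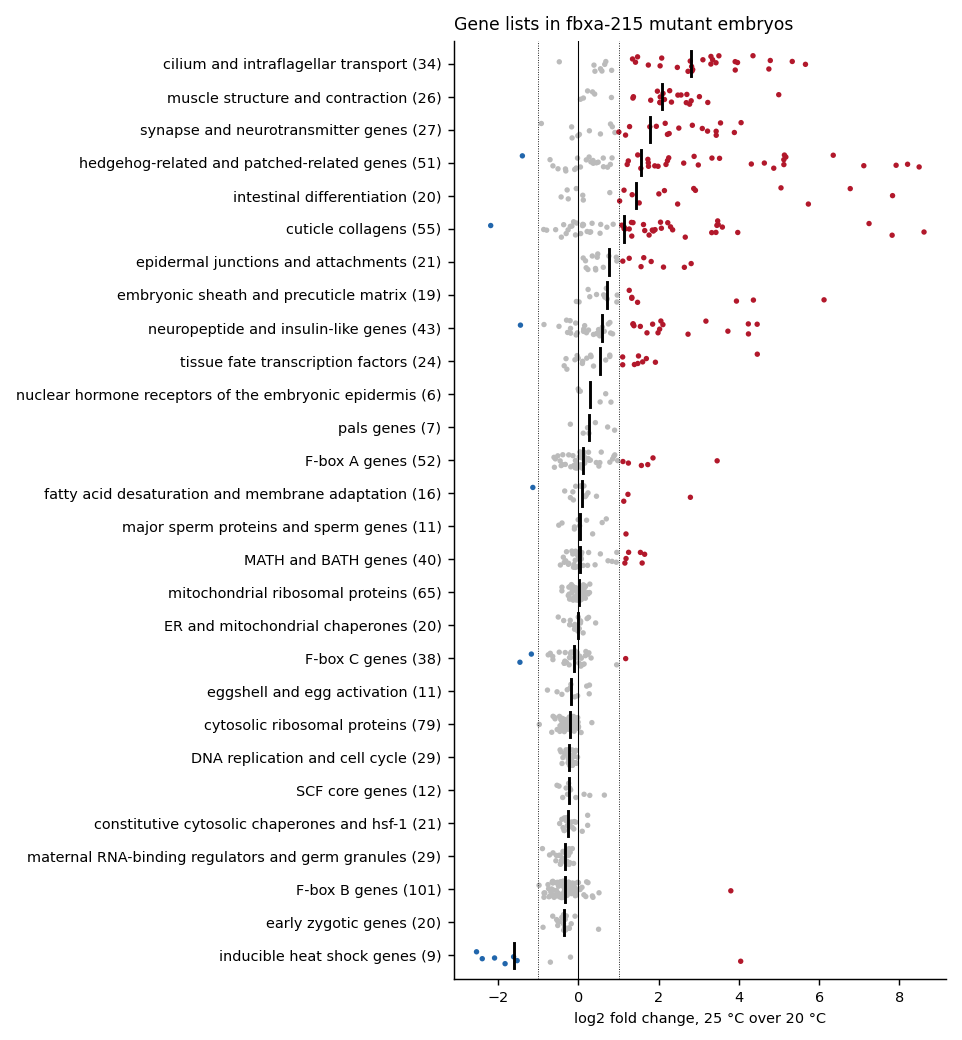
Log2 fold change (25 °C over 20 °C, edgeR) of each tested member of the 28 lists with at least 5 tested members, whose number stands in parentheses. Red and blue points are genes called higher and lower, grey points were not called, black bars are list medians, from -1.61 for inducible heat shock genes to 2.80 for cilium genes (12 of which passed the filter through 25 °C alone), and dotted lines mark a fold of 2.

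Epidermal matrix genes ranged from small to very large rises. The apical matrix that covers the embryo before the cuticle was already abundant at 20 °C: *noah-1*, which encodes a zona pellucida domain protein, had 1036, 938, 887 and 924 CPM at 20 °C and 1440, 1530, 1451 and 1433 CPM at 25 °C. The groups did not overlap, but the rise was only 1.55-fold. *let-653*, of the same protein class, rose 1.22-fold. *sym-1*, a leucine-rich repeat protein of the matrix, had 700 ± 27.3 and 709 ± 10.2 CPM (edgeR adjusted p = 0.635). The secreted lipocalin *lpr-1* rose from 0.504 ± 0.182 to 10.7 ± 1.76 CPM. Of 17 matrix genes above the cutoff at both temperatures 5 were called higher and none lower (median 0.70).

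Cuticle collagens ranged as widely. *sqt-3*, *dpy-17* and *dpy-14* had the highest mean CPM of all genes called higher, on a scale that is not corrected for gene length, and rose 2.51-fold, 2.41-fold and 2.25-fold. *sqt-3* had 732, 637, 586 and 616 CPM at 20 °C and 1500, 1707, 1687 and 1572 CPM at 25 °C. *dpy-7* rose 4.13-fold, from 46.9 ± 7.21 to 193 ± 18.7 CPM. *col-74* rose from 0.948 ± 0.172 to 11.6 ± 3.82 CPM. *col-165* had 2 counts in all at 20 °C against 968 at 25 °C, a ratio of 497 (95% counting interval 137 to 4110). *dpy-13*, by contrast, stayed below the filter, with at most 0.396 CPM in any library. Of 32 cuticle collagens above the cutoff at both temperatures 14 were called higher and none lower (median 0.45). *col-63*, named after its value was seen, was the 1 collagen called lower, from 2.69 ± 0.466 to 0.595 ± 0.333 CPM, and was below the cutoff in at least 1 library. In all 118 of the 173 collagens in the tables were not tested. The *abu* genes called higher were *abu-14*, which rose from 1.52 ± 0.263 to 18.7 ± 2.38 CPM, and *abu-13*, which rose from 1.64 ± 0.273 to 15.5 ± 3.49 CPM, while 11 of the 14 genes of that glutamine-rich family were not tested.

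Hedgehog-related and patched-related genes, many of which act in the epidermis and its molts, held several of the largest rises. *wrt-1* had 0.0639, 0.0602, 0.265 and 0.0791 CPM at 20 °C and 25.4, 36.1, 33.6 and 25.7 CPM at 25 °C. *wrt-2*, which overlaps *pccb-1*, had 0.128, 0.181, 0.133 and 0.554 CPM at 20 °C and 31, 39.1, 37.2 and 26.6 CPM at 25 °C. In both genes the lowest library at 25 °C was far above the highest at 20 °C. Both were below the cutoff in every library at 20 °C and passed the filter through 25 °C alone, so their groups could not overlap. *grd-1* and *grl-5* had no counts at 20 °C. Against the floor of 3 counts per library they were at least 15-fold and 12-fold higher at 25 °C. *ptr-4*, a patched-related transmembrane protein, rose 11.4-fold, from 8.89 ± 2.42 to 102 ± 7.04 CPM. Of 29 members above the cutoff at both temperatures 13 were called higher and 1 lower (median 0.73), and 18 more entered the test through 25 °C alone.

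Junction genes rose together but modestly. All 21 epidermal junction and attachment genes were above the cutoff at both temperatures and all 21 were higher past the adjusted p (background 36.3%), though only 8 passed the fold minimum (median 0.76). *dlg-1*, the scaffold of the apical junction, rose 1.40-fold, *vab-10*, a spectraplakin of the fibrous organelles, rose 1.69-fold, and *let-805*, the attachment protein myotactin, rose 2.15-fold. The fusogens *eff-1* and *aff-1*, which merge epidermal and other cells, rose 6.24-fold and 7.01-fold, though *eff-1* overlaps the gene *C26D10.6*.

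**Figure D3:**
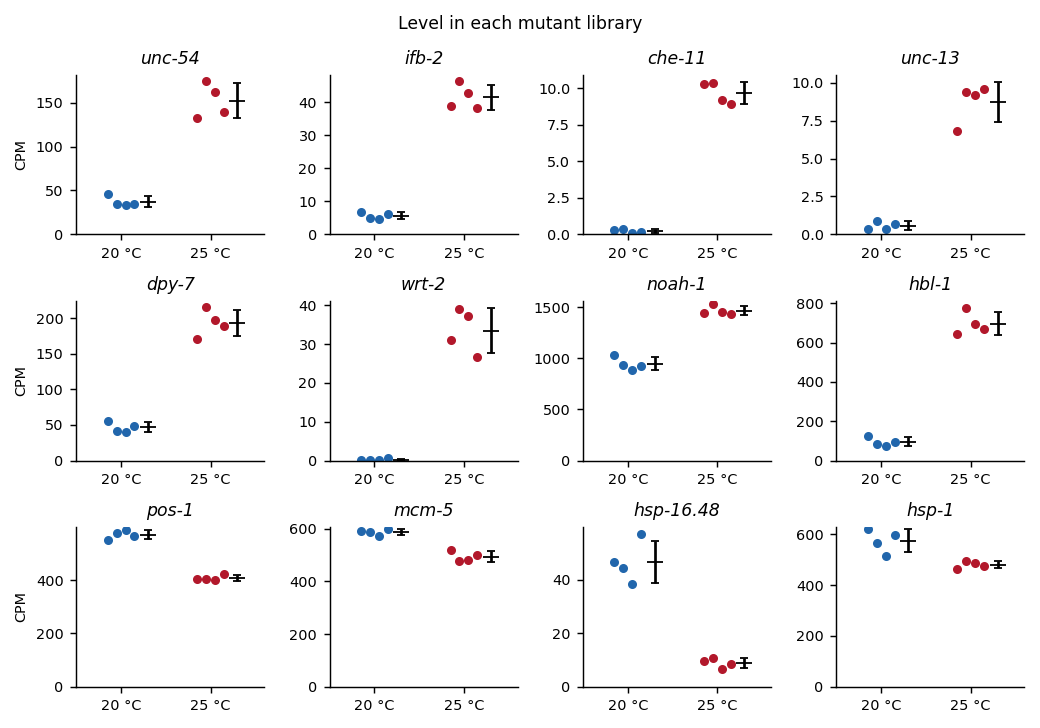
CPM of 12 genes in each mutant library, 4 points at 20 °C (blue) and 4 at 25 °C (red) in replicate order, with the mean and SD beside them, on linear axes from 0. In the panels *unc-54*, *ifb-2*, *che-11*, *unc-13*, *dpy-7*, *wrt-2*, *noah-1* and *hbl-1* the 25 °C points lie above all 20 °C points, and in *pos-1*, *mcm-5*, *hsp-16.48* and *hsp-1* they lie below. *che-11*, *unc-13* and *wrt-2* passed the filter through 25 °C alone.

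Transcription factors of tissue fate were divided. Of 21 above the cutoff at both temperatures 6 were called higher and none lower (median 0.32). *unc-42*, a homeodomain factor of neurons, rose 3.78-fold, and *ceh-24*, an NK-2 homeodomain factor, rose from 0.0855 ± 0.0831 to 2.00 ± 0.479 CPM. *pha-4*, the organ identity factor of the pharynx, rose 1.23-fold. *nhr-25*, a nuclear receptor of the epidermis, had 181 ± 11.3 and 181 ± 5.48 CPM (edgeR adjusted p = 0.928), and *nhr-23*, which acts in the molting cycle, rose 1.6-fold. The next 4 genes, which act in the timing of larval development, were picked after their values were seen. *hbl-1*, a zinc finger factor that governs early larval fates, had 127, 85.0, 76.1 and 92.6 CPM at 20 °C and 643, 778, 693 and 668 CPM at 25 °C. That is a 7.30-fold rise with no overlap. *lin-14*, which specifies first-stage larval fates, rose from 0.160 ± 0.146 to 13.1 ± 1.97 CPM, the nuclear receptor *daf-12* rose 4.68-fold, and *lin-28*, which blocks let-7 processing, rose 1.27-fold. The basement membrane collagens *emb-9* and *let-2*, also added afterwards, rose 2.64-fold and 2.76-fold.

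Maternal, early zygotic and cell cycle genes were mostly lower at 25 °C, by small steps. Falls of this size depend on the scaling: when libraries were scaled on cytosolic ribosomal protein genes, the median of all genes moved from 0.00 to 0.23, and values below are on the main scaling. All 29 maternal regulators and germ granule genes were lower at 25 °C past the adjusted p (background 33%), with a median log2 fold change of -0.33, and none passed the fold minimum. *pos-1*, an RNA-binding protein that specifies posterior fates, had 551, 575, 589 and 565 CPM at 20 °C and 403, 404, 398 and 423 CPM at 25 °C. The groups lay well apart at 0.714 of the level. *pie-1*, which silences transcription in the germ lineage, fell to 0.645, *mex-5* to 0.783 and *nos-2* to 0.827 of its level at 20 °C. *pie-1* and *nos-2* overlap *snr-6* and *him-14*. Of 20 early zygotic genes 13 were lower and 1 was higher past the adjusted p (median -0.37). *end-1*, which specifies endoderm, fell from 14.6 ± 1.31 to 10.5 ± 0.338 CPM, *hlh-27*, a basic helix-loop-helix gene, from 11.8 ± 1.76 to 7.55 ± 0.879 CPM, and *tbx-37*, a T-box gene, from 11.9 ± 1.78 to 8.34 ± 0.587 CPM. Of 29 replication and cell cycle genes 24 were lower and none higher past the adjusted p (median -0.22). *mcm-5*, a subunit of the replicative helicase, fell from 588 ± 11.1 to 494 ± 20.4 CPM and the mitotic kinase *cdk-1* from 411 ± 4.68 to 370 ± 16.9 CPM, whereas *rnr-1*, of ribonucleotide reductase, had 709 ± 2.44 and 699 ± 35.9 CPM (edgeR adjusted p = 0.578). When libraries were scaled on ribosomal protein genes the log2 fold change of *cdk-1* turned to 0.07. Eggshell genes were mixed. *cbd-1*, a chitin-binding protein, rose 1.21-fold, the chitin synthase *chs-1* had 9.91 ± 0.637 and 11.4 ± 1.36 CPM, and *egg-1* had 5.18 ± 0.356 and 5.11 ± 0.691 CPM.

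Histone genes made up much of the small set of large falls. This family was looked at after the table was seen, by its symbol. Of 49 *his* genes tested 37 were called lower and 2 higher (background 1.05% and 18.8%). That count includes members that were not above the cutoff at both temperatures. Of the 38 that were, 28 were called lower and 2 higher (background 0.734% and 10.3%). The gene called *his-58* with the identifier WBGene00001932 (chromosome IV, 11339735 to 11340106) had 17.1, 17.7, 16.6 and 18 CPM at 20 °C and 2.70, 7.26, 5.04 and 0 CPM at 25 °C. The groups did not overlap, and replicate 4 at 25 °C had no count. Its log2 fold change was -2.21 ± 0.31 (edgeR adjusted p = 7.72e-07), and DESeq2 gave an adjusted p of 0.0675. Replication-dependent histone transcripts mostly lack a poly(A) tail and histone genes are near-identical copies, so libraries made by poly(A) selection catch an unknown share of them and reads may be divided among copies. What that share contributed was not tested.

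The list of inducible heat shock genes was mostly lower in the warmer batch. Of the 7 inducible heat shock genes above the cutoff at both temperatures, 6 were called lower and none higher. The small heat shock genes *hsp-16* lie in pairs on chromosome V and encode chaperones that heat induces strongly. *hsp-16.48* (9088131 to 9088617) had 46.7, 44.3, 38.5 and 57.1 CPM at 20 °C and 9.49, 10.7, 6.45 and 8.33 CPM at 25 °C. *hsp-16.1* (WBGene00002017, 9090077 to 9090604) had 33.4, 31.4, 22.8 and 34.6 CPM at 20 °C and 6.0, 6.13, 3.63 and 5.03 CPM at 25 °C. In the other pair *hsp-16.2* (1804334 to 1804957) fell from 8.05 ± 1.43 to 2.60 ± 0.660 CPM and *hsp-16.41* (1805178 to 1805875) from 18.4 ± 2.62 to 5.15 ± 0.953 CPM. In all 4 genes the libraries at 20 °C lay above those at 25 °C. A second identifier with the symbol *hsp-16.1*, WBGene00002015, had no counts in any mutant library, and reads of such copies could not be told apart. The Hsp70 genes *F44E5.4* and *F44E5.5*, also near copies, fell by 1.53 and 2.09 on the log2 scale, and *F44E5.5* had 214 to 269 CPM at 20 °C and 25.1 to 73.2 CPM at 25 °C. *hsp-70* had 1.49 ± 0.466 and 0.907 ± 0.486 CPM in overlapping groups (edgeR adjusted p = 0.0632), and without replicate 1 at 25 °C its adjusted p was 0.0128. *hsp-43*, another small heat shock gene of the list, rose from 0.219 ± 0.185 to 3.96 ± 0.970 CPM. Other small heat shock genes that are not on the list rose as well, and were named after their values were seen. *hsp-12.1* had 3.25 to 6.26 CPM at 20 °C and 19.5 to 25.9 CPM at 25 °C, *hsp-12.2* had 1.44 to 2.17 and 24.9 to 34.2 CPM, and *hsp-25* had 9.62 to 11.6 and 31.1 to 37.4 CPM. By symbol, 17 *hsp* genes were tested, of which 4 were called higher and 4 lower.

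The constitutive chaperones moved little. Of 21 cytosolic chaperones and their regulator 17 were lower and 3 higher past the adjusted p, none by 2-fold (median -0.26). *hsp-1*, the constitutive Hsp70, had 620, 567, 513 and 598 CPM at 20 °C and 465, 493, 488 and 476 CPM at 25 °C. *hsf-1*, the heat shock transcription factor, had 101 ± 1.58 and 96.3 ± 1.72 CPM (edgeR adjusted p = 0.101). Among 20 chaperones of the endoplasmic reticulum and mitochondria 6 were lower and 5 higher past the adjusted p. The BiP gene *hsp-4* fell from 421 ± 3.77 to 365 ± 4.81 CPM and the mitochondrial Hsp70 gene *hsp-6* from 269 ± 7.87 to 252 ± 3.68 CPM, and both turned positive under ribosomal scaling. Of 14 genes of fatty acid desaturation and membrane adaptation above the cutoff at both temperatures 1 was called higher and 1 lower. The Δ9 desaturases *fat-5* and *fat-6* rose 2.35-fold and 6.92-fold from means of 0.947 and 0.307 CPM, but *fat-5* was not called in a test against a fold of 2 (edgeR adjusted p = 0.379). *fat-7* was below the filter at 0.0663 to 0.575 CPM. *paqr-2*, an adiponectin receptor relative needed for growth in the cold, had a log2 fold change of -0.20, which also turned positive under ribosomal scaling.

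The F-box A family, to which the deleted gene belongs, hardly moved at this threshold. Of 40 F-box A genes above the cutoff at both temperatures none was called (median 0.07), and the 6 called higher among all 52 tested were below that cutoff in at least 1 library. *fbxa-192* and *fbxa-210*, fixed as examples of the family, behaved differently. *fbxa-192* had 18.3, 15.7, 16.8 and 18.1 CPM at 20 °C and 11.9, 12, 13.8 and 14.3 CPM at 25 °C, a fall to 0.757 of its level without overlap. *fbxa-210* had 39.5 to 42.6 CPM at 20 °C and 40.7 to 43.8 CPM at 25 °C, in overlapping groups. The largest rises in the family were *fbxa-137*, from 0.468 ± 0.169 to 5.23 ± 1.25 CPM, and *fbxa-52*, from 0.537 ± 0.222 to 1.95 ± 0.252 CPM. F-box B genes leaned down: 72 of 101 were lower and 5 higher past the adjusted p (background 33% and 36.3%), with a median of -0.34. The 1 F-box B gene called was called higher, and was below the cutoff in at least 1 library. Among F-box C genes *fbxc-20* rose 2.26-fold and *fbxc-8* fell to 0.444 of its level. In the MATH and BATH families of MATH-domain proteins 6 of 40 were called higher (background 18.8%). Of the 32 above the cutoff at both temperatures 2 were called higher (background 10.3%), so neither share exceeded that of all genes. *math-3* and *math-34* rose from 0.800 ± 0.148 to 2.53 ± 0.376 CPM and from 0.754 ± 0.122 to 2.27 ± 0.356 CPM. Of 12 genes of the SCF core none was called. *skr-1*, the Skp1-related adaptor, rose 1.10-fold, and the cullin *cul-1* had 395 to 423 CPM at 20 °C and 329 to 369 CPM at 25 °C, a fall that turned to a log2 fold change of 0.01 under ribosomal scaling.

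Cytosolic ribosomal protein genes were slightly lower at 25 °C. Of 79 tested, 66 were lower and 1 was higher past the adjusted p (background 33% and 36.3%), with a median of -0.20, and none passed the fold minimum. *rpl-1* had 394, 385, 376 and 370 CPM at 20 °C and 303, 331, 343 and 310 CPM at 25 °C, in groups that did not overlap. *rps-1* had 643 to 661 CPM at 20 °C and 579 to 624 CPM at 25 °C. Of 65 mitochondrial ribosomal protein genes 14 were lower and 7 higher (median 0.00).

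The remaining lists checked for other material. No vitellogenin reached a call: the yolk protein genes *vit-2* and *vit-6*, transcribed in the adult intestine, had at most 0.371 and 0.264 CPM in any mutant library, and 2 of 6 were tested. Of 78 sperm genes 11 were tested and 1 was called higher. Of 38 *pals* genes, a family that includes regulators of the response to intracellular pathogens, 7 were tested and none was called, with *pals-22* at 5.33 ± 0.428 and 9.93 ± 0.780 CPM and *pals-25* at 5.98 ± 0.573 and 9.91 ± 0.863 CPM, both higher past the adjusted p. Under ribosomal scaling *pals-22* passed the fold minimum (log2 1.12). Outside the lists, the largest rises included the galectin *lec-5*, with 2 counts over the libraries at 20 °C and 601 at 25 °C (ratio 309, 95% counting interval 85.1 to 2554), and 3 genes with no given name, *F41F3.3* (0 to 0.199 CPM against 36.8 to 54.9 CPM), *R07E3.6* (0 to 0.256 against 18.8 to 26 CPM) and *ZC123.1* (0.0639 to 0.120 against 13.6 to 19.6 CPM). The largest falls outside the heat shock and histone genes included *dhs-8*, a short-chain dehydrogenase, from between 46.8 and 53.3 to between 11.3 and 14 CPM. The genes called lower with the highest mean CPM were *rbm-3.1*, an RNA-binding protein gene, from 568 ± 61.8 to 258 ± 5.65 CPM, *iff-1*, the germline eIF5A gene, from 543 ± 33.2 to 231 ± 9.81 CPM, and *F44E5.5*.

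By chromosome, the share of tested genes called higher was 30.1% on X (486 of 1617), against 18.8% of all genes tested. On the autosomes it ranged from 12.4% on III to 23.9% on V. The median log2 fold change was 0.19 on X and between -0.05 and 0.05 on the autosomes. Gene content and level differ between chromosomes, and these shares were not adjusted for either. The shares and medians cover all genes tested, including the 1371 that the filter admitted through the warmer temperature alone. Of these 1371 genes, 1154 were called higher. How these genes were spread over the chromosomes was not tested, so whether X stands out without them is not known.

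Wild-type embryos showed a similar difference between the temperatures. Of 11579 genes tested in wild type 2316 (20%) were called higher and 131 (1.13%) lower. Over the 11319 genes tested in both strains the log2 fold changes had a Pearson correlation of 0.95 and a Spearman correlation of 0.91, which describes genes and is no test over samples. The strains share no library. They shared 2001 calls in the same direction and none in the opposite direction, which is 87.2% of the mutant calls and 81.8% of the wild-type calls. Over all members tested in each strain, the list median was 2.07 in mutants and 1.85 in wild type for muscle, 2.80 and 2.35 for cilium, -1.61 and -2.01 for inducible heat shock, 0.60 and 0.99 for neuropeptides, 0.26 and 0.84 for *pals* genes and -0.33 and -0.58 for maternal genes. It had opposite signs for cytosolic ribosomal genes, at -0.20 and 0.05. The members tested were not always the same in mutants and wild type, at 7 and 10 for *pals* genes, 43 and 40 for neuropeptides and 26 and 28 for muscle. These medians include members that passed the filter only at 25 °C. Above the cutoff at both temperatures the mutant median was 2.04 for muscle, 1.61 for cilium and 0.13 for neuropeptides.

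**Figure D4:**
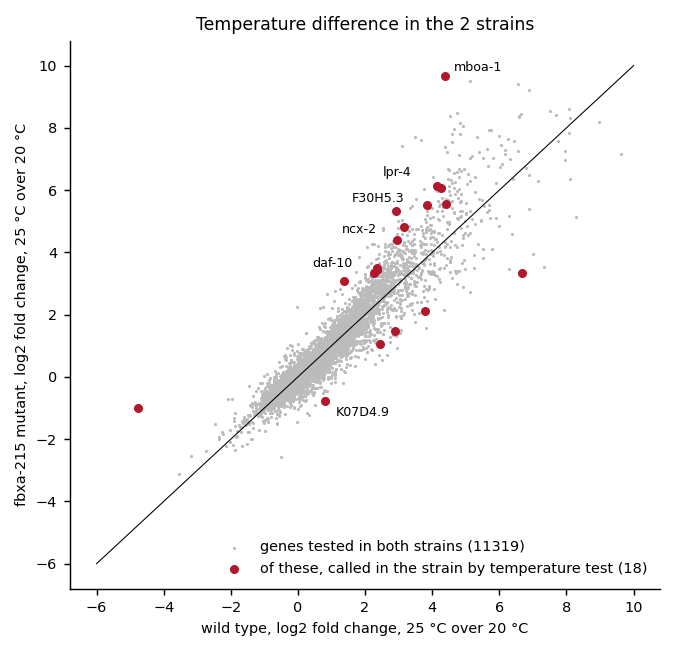
Log2 fold change of 25 °C over 20 °C (edgeR) in wild type (horizontal) and in *fbxa-215* mutants (vertical) for the 11319 genes tested in both, with the line of equal change. The 18 red genes were called in the test of strain by temperature, and *lpr-4*, *F30H5.3*, *ncx-2*, *daf-10* and *mboa-1* lie above the line while *K07D4.9* lies below it.

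The test of strain by temperature asks where the difference in mutants is not that of wild type. It called 22 of 12117 genes (0.182%), 14 with the higher ratio of 25 °C to 20 °C in mutants and 8 with the lower, and 141 genes (1.16%) passed the adjusted p without the fold minimum. At an unadjusted p under 0.05 there were 1756 genes. The count of 22 depended on single libraries: leaving out mutant replicates 1 to 4 at 20 °C gave 46, 7, 4 and 9 genes, and leaving out mutant replicates 2 to 4 at 25 °C gave 9, 9 and 13. Leaving out replicate 1 of wild type at 20 °C gave 5, and leaving out its replicate 3 at 25 °C gave 64. DESeq2 called 52 genes. *lpr-4*, *ncx-2*, *F30H5.3* and *K07D4.9* were called in every alternative tried.

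As a ratio of their levels, though not always as a difference in CPM, the strains lay further apart at 20 °C than at 25 °C in most of these genes. On 1 scaling over all 16 libraries, *lpr-4* (chromosome X, 11065126 to 11066811), a lipocalin of the embryonic matrix, had 0.613 to 1.44 CPM in mutants and 3.98 to 6.33 CPM in wild type at 20 °C, in groups that did not overlap. At 25 °C it had 66.2 to 85.8 CPM in mutants and 78.5 to 102 CPM in wild type, where the groups overlapped. The interaction was 1.94 ± 0.28 on the log2 scale (SE, edgeR adjusted p = 0.00168). *ncx-2*, a sodium-calcium exchanger, had 3.18 ± 0.723 CPM in mutants and 10.1 ± 1.83 CPM in wild type at 20 °C and 64.6 ± 6.72 and 76.8 ± 11.8 CPM at 25 °C, with an interaction of 1.40 ± 0.22. *F30H5.3* had 3.74 ± 0.922 and 13.7 ± 3.27 CPM at 20 °C and 166 ± 22.2 and 199 ± 45.2 CPM at 25 °C. *K07D4.9* ran the other way, with 5.34 ± 1.04 CPM in mutants and 1.54 ± 0.228 CPM in wild type at 20 °C against 2.97 ± 0.547 and 2.66 ± 0.470 CPM at 25 °C (interaction -1.63 ± 0.28). *mboa-1*, an O-acyltransferase gene, had no counts in mutants at 20 °C and 0.417 ± 0.134 CPM in wild type. In the mutants *mboa-1* was at least 33.7-fold higher at 25 °C against the floor of 3 counts per library. *daf-10*, which encodes an intraflagellar transport protein, had 1.22 ± 0.101 CPM in mutants and 3.19 ± 0.670 CPM in wild type at 20 °C, and 12.9 ± 1.08 and 16.3 ± 1.70 CPM at 25 °C. *ZC84.1* had 1.83 ± 0.375 and 4.42 ± 1.02 CPM at 20 °C and 20.3 ± 1.76 and 22.7 ± 3.67 CPM at 25 °C. *gst-4*, a glutathione S-transferase, stayed at or below 1.64 CPM in every library, and its interaction of -3.28 rests on few counts.

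The cytosolic ribosomal genes were the list with the most strain by temperature differences. Of 79 genes 40 passed the adjusted p in that test, all 40 with the lower log2 change in mutants, against a background of 1.16%, and none passed the fold minimum. *rpl-1* had 380 to 402 CPM in mutants and 342 to 373 CPM in wild type at 20 °C, and 300 to 340 and 331 to 382 CPM at 25 °C, an interaction of -0.28 ± 0.07 (edgeR adjusted p = 0.036). *rps-1*, the other ribosomal gene named above, had an interaction of -0.18 ± 0.06 and did not pass (edgeR adjusted p = 0.122). The list median was -0.20 in mutants and 0.05 in wild type. The mean log2 CPM of the list was between 8.62 and 8.70 in mutants at 20 °C, above the 8.39 to 8.53 of wild type, and between 8.33 and 8.44 at 25 °C, where wild type had 8.35 to 8.56.

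**Figure D5:**
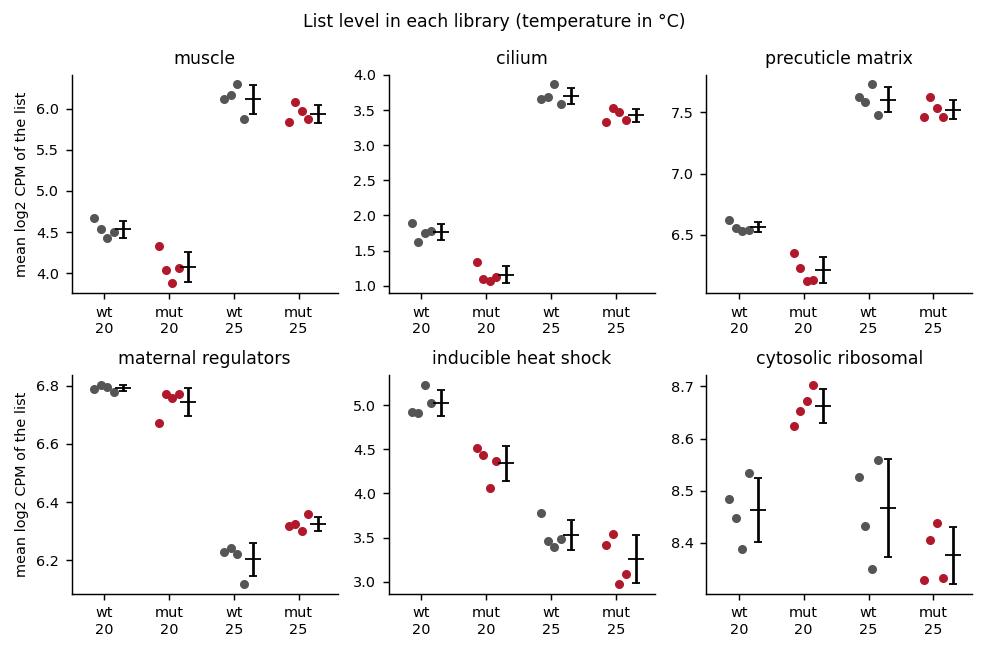
Mean log2 CPM of 6 gene lists in each of the 16 libraries, on 1 scaling over all of them, with wild type (wt, grey) and *fbxa-215* mutants (mut, red) at 20 °C and 25 °C, and the mean and SD of each group of 4 beside its points. The vertical axes do not start at 0 and differ between panels, and the mutants at 20 °C lie below wild type at 20 °C in the muscle, cilium, matrix, maternal and inducible heat shock panels and above it in the ribosomal panel.

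Levels of the other lists are given with no test. At 20 °C the strains did not overlap in 15 of 30 lists, where mutants were lower in 9 and higher in 6. At 25 °C they did not overlap in 8, where mutants were lower in 4 and higher in 4. The share of all genes in which the strains did not overlap is not given here, so these counts have no background and show no effect on the lists. The mean log2 CPM of muscle genes was between 3.87 and 4.32 in mutants and between 4.43 and 4.67 in wild type at 20 °C, and between 5.83 and 6.08 and between 5.88 and 6.29 at 25 °C. That of cilium genes was between 1.06 and 1.34 in mutants and between 1.63 and 1.90 in wild type at 20 °C, and between 3.34 and 3.53 and between 3.59 and 3.86 at 25 °C. Inducible heat shock genes had between 4.06 and 4.51 in mutants and between 4.92 and 5.23 in wild type at 20 °C, and between 2.98 and 3.54 and between 3.39 and 3.78 at 25 °C. Maternal genes had between 6.67 and 6.77 in mutants and between 6.78 and 6.80 in wild type at 20 °C, and at 25 °C the mutants were the higher, with between 6.30 and 6.36 against 6.12 to 6.24. *pals* genes overlapped at 20 °C and were lower in mutants at 25 °C, with between 1.35 and 1.75 against 1.87 to 1.99. Each strain had its own embryos at each temperature, and whether stage composition differed between them was not tested.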

How the data were processed

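Polyadenylated RNA of whole embryos was sequenced as non-directional read pairs of 150 bases. The authors trimmed reads with Trimmomatic v0.39, quantified genes with salmon v1.5.1 with sequence and GC bias correction, and deposited estimated counts per gene in a table for each temperature. Of the values of the mutant libraries 27.7% were not whole (tolerance 0.01), so counts were rounded before modelling. The build named in the submitters' notes is WBcel235, and the transcriptome release is not given in the sources used here. The deposited DESeq2 tables, which hold log2 values per library and the authors' comparison of the strains, were not used. Genes were matched to the WBcel235 annotation of Ensembl (21714 of 21882), and 19626 had a symbol.

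Both tables were joined by gene identifier. Genes were tested in edgeR v4.0.16 (R v4.3.3) by quasi-likelihood, after filterByExpr and TMM scaling on the 8 mutant libraries without covariates, with Benjamini-Hochberg adjustment. The same test was run on wild type, and on all 16 libraries for strain by temperature. CPM were scaled within the 8 mutant libraries unless 1 scaling over 16 is stated, log2 levels used a prior count of 2, and counting intervals are exact Clopper-Pearson intervals that cover counting error only. DESeq2 v1.42.0, limma-voom v3.58.1 (on log2 values), other scalings, filters and thresholds, and leaving out each library were the alternatives. The script was tested on simulated data.

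Members and gene lists were chosen with earlier results of these data known. Genes were named by a rule: fixed examples of each list, up to 2 called genes of largest change per list (mean of at least 1 CPM, groups apart), the 6 largest rises and 6 largest falls (mean of at least 5 CPM, groups apart), the 3 called genes of highest CPM in each direction, and up to 8 interaction calls of smallest adjusted p. Others are marked as chosen after values were seen. Of the 120 genes followed, 43 overlap another annotated gene, whose reads could not be told apart. No set test was run.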

Additional observations from a re-analysis of the deposited data

Results flagged for a closer look

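In 7 of 249 groups of 4 libraries examined, 1 library lay far from the other 3 (chance flags about 5% of such groups). *abu-14* was 1.13 CPM in mutant replicate 3 at 20 °C against 1.6 to 1.69 in the others. *bbs-8* was 2.12 CPM in mutant replicate 4 at 25 °C against 3.16 to 3.30, *unc-13* was 6.79 CPM in replicate 1 at 25 °C against 9.19 to 9.59, and *unc-54* was 46.4 CPM in replicate 1 at 20 °C against 33.2 to 34.3. Of the mean log2 CPM of lists at 25 °C, *pals* genes were at 1.37 in replicate 1 against 1.73 to 1.75, F-box A genes at 1.91 in replicate 1 against 1.85 to 1.85, and vitellogenins at -0.92 in replicate 2 against 0.25 to 0.36, the last over 2 genes of very low counts.

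For 11 of the genes described, the difference between temperatures was not the same in the 2 strains by the edgeR test of strain by temperature. Its log2 value was 1.94 for *lpr-4*, 1.40 for *ncx-2*, 1.62 for *F30H5.3*, 5.22 for *mboa-1*, 1.10 for *ZC84.1*, 1.04 for *daf-10* and 0.92 for *hbl-1*, where the mutants had the higher ratio of 25 °C to 20 °C. It was -1.63 for *K07D4.9*, -3.28 for *gst-4*, -0.67 for *dhs-8* and -0.28 for *rpl-1*. The adjusted p was between 0.00168 for *lpr-4* and 0.0483 for *dhs-8*. Most of the 11 were described because this test called them: *lpr-4*, *ncx-2*, *F30H5.3*, *mboa-1*, *ZC84.1*, *daf-10*, *K07D4.9* and *gst-4*. *hbl-1* was picked after its values were seen. The count of 11 is therefore largely set by the choice of genes. It cannot be compared with the 1.16% of all genes tested that passed the adjusted p.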

How the results depend on the processing

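The count of genes called in mutants (2295, 2174 higher and 121 lower) was 1135 (1069 and 66) with at least 10 counts required in every library, 3523 (3307 and 216) with no filter and 8004 (4192 and 3812) with no fold minimum. Genes called lower numbered 52 under a test against a fold of 2 and 76 with ribosomal scaling. Leaving out each mutant library gave between 2273 and 2525 calls. The wild-type count (2447) was 7657 with no fold minimum. The interaction count (22) was 52 with DESeq2, 141 with no fold minimum and between 4 and 64 on leaving out each library. Replicate numbers did not pair the libraries: deviations of same-numbered mutant libraries correlated at -0.03, 0.07, 0.04 and 0.04. With a replicate block the mutant fit called 2306 genes and the interaction 13. Ribosomal scaling moved the median of all genes to 0.23 and reversed *cdk-1* (0.074), *snb-1* (0.055), *hsp-4* (0.022), *hsp-6* (0.13), *paqr-2* (0.024), *cul-1* (0.011) and *rps-1* (0.11). Relative to the median of all genes, list medians with at least 10 counts in every library were 0.36 for fate factors, 1.07 for intestine, 1.00 for synapse, 0.18 for neuropeptides, 1.52 for cilium, 0.58 for collagens, 0.77 for hedgehog-related genes, -0.21 for cytosolic chaperones, 0.037 for ER and mitochondrial chaperones, -0.021 for F-box C, 0.049 for mitochondrial ribosomal genes, 0.16 for sperm genes and 0.092 for nuclear receptors. Fewer genes are tested under that filter. Leaving out each library gave medians between -0.22 and -0.13 for eggshell genes, 1.31 and 1.63 for intestine, 1.44 and 1.98 for synapse, 0.50 and 0.71 for neuropeptides, -0.032 and 0.15 for sperm genes and 0.19 and 0.36 for nuclear receptors. *fat-5* and *fbxc-8* lost their calls in the test against a fold of 2, and *pals-22* gained one with ribosomal scaling (1.12). *hsp-70* (-1.06) was called without replicate 1 at 25 °C, and *fbxc-8* and *rbm-3.1* fell by under 2-fold with ribosomal scaling (-0.95 and -0.91). Depth limits the genes under about 0.2 CPM, where a fold rests on few counts.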
